A study of Mus musculus with 5 samples.

Results

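The Hox genes are the 39 mouse homeobox genes of the clusters a, b, c and d that the array named by a Hox cluster letter and a paralog number. They were found by name alone among 21983 genes, without use of any measured value. They number 11 in cluster a, 10 in cluster b, 9 in cluster c and 9 in cluster d, and 43 of the 55681 probes read them. Gene expression was measured on 5 single-colour arrays of mouse RNA, 1 array per sample. 3 of them read ciNPC, neural progenitor cells induced from fibroblasts by chemical cocktails under hypoxia. 2 of these came from passage 13 (p13) and 1 from passage 5 (p5). 1 array read brain-derived neural progenitors (NPC), the control for the induced cells, and 1 read embryonic fibroblasts (MEF). The labels give no strain, age or number of animals and name no compound. Nothing there sets the p13 arrays down as separate cultures, so the spread behind each p-value may be technical.

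Hox genes code for transcription factors that bind DNA through a homeodomain and give cells along the trunk and limbs their position. Within a cluster, genes with low paralog numbers are used towards the head and genes with high numbers towards the tail and the limb tips, in the order in which they lie on the chromosome. Fibroblasts keep a Hox pattern that marks the body site they came from, whereas the forebrain and midbrain form in front of the Hox domain. The hindbrain and spinal cord, by contrast, use Hox genes. The study's design set ciNPC beside NPC and MEF to find out what kind of cell they were.

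Each gene was read by probes of 60 bases, and a pair of them is shown because they lie on the parts of the proteins that define the family. The homeodomain reads DNA with its helix 3, and the hexapeptide ahead of it is where Pbx cofactors dock. In the probe of Hoxc11 (chr15:102787022-102787081, plus strand) the capitals mark the codons of the conserved core of helix 3. In the Hoxa6 probe (chr6:52158194-52158253, minus strand) they mark the codons of the hexapeptide core. Coordinates of probes are on mm9, per the file headers.
Hoxc11 probe: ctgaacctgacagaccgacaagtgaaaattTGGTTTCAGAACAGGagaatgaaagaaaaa
Hoxa6 probe: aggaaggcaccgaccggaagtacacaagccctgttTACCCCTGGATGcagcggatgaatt

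Among all probes of different Hox genes the longest run of identical bases was 11. The Hoxc11 probe gave a log2 difference of ciNPC from MEF of -2.90, and the Hoxa6 probe gave -2.22. Each was under background on 2 of the 3 ciNPC arrays.

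Between 47.9% and 54.1% of spots were well above background on the ciNPC arrays, against 55.2% on the NPC array and 57.6% on the MEF array. The p13 replicate 2 array stood apart: its spike-in slope, 0.803, was outside the range the scanner software accepts, and its dim signals lay higher than on the other ciNPC arrays. All 3 ciNPC arrays shared 1 slide and scan, and the NPC and MEF arrays shared another, so in comparisons of ciNPC with NPC or MEF the slide and the cell type cannot be told apart. Values below are log2 signals relative to the 75th percentile of their array, and signals of different genes are not set against each other, since each probe has its own brightness. Probes under background read 1.02 to 2.53 log2 units higher on the ciNPC arrays than on the NPC array for the 4 Hox genes that no array detected, so differences of dim genes from NPC are given as bounds. A bound sets the brighter group against the floor, the lowest signal well above background on the dimmer array. Where the brighter group was detected on only some of its arrays, its mean includes values under background, and the bound is not strict. An adjusted p beside a bound tests the measured difference and not the bound.

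Few Hox genes were detected in brain NPC, and most were in MEF. Of the 39 genes, 1 was well above background in NPC and 35 in MEF. At least 1 ciNPC array detected 29 genes and all 3 detected 18. Hoxb1, Hoxb13, Hoxd1 and Hoxd12 were under background on every array and were not tested. The other 35 all passed the filter on dim probes through the MEF array. With values under the floor raised to it, 31 of these 35 were at least 4-fold lower in NPC than in MEF, and 10.1% of 16228 genes tested were. With normexp background correction and quantile normalisation 20 of the 35 were. The bounds reached at least 194-fold for Hoxa7 and at least 179-fold for Hoxc9, a thoracic gene, and exceeded 100 for 4 genes. With 1 array each, NPC and MEF were not tested against each other.

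Hoxa9, known for its role in blood progenitors and in the limb, was the 1 Hox gene detected in NPC. It had log2 signals of -2.79, -2.32 and -3.72 on the p13 replicate 1, p13 replicate 2 and p5 arrays, -3.26 in NPC and -1.15 in MEF. The NPC value lay inside the range of the ciNPC arrays, and MEF lay above all of them. ciNPC differed from NPC by 0.32 (95% interval -1.17 to 1.80, adjusted p 0.8). The second Hoxa9 probe read -4.77, -4.44 and -4.66 on the ciNPC arrays, all under background, -4.12 in NPC and -1.21 in MEF, so it too was detected in NPC.

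**Figure D1:**
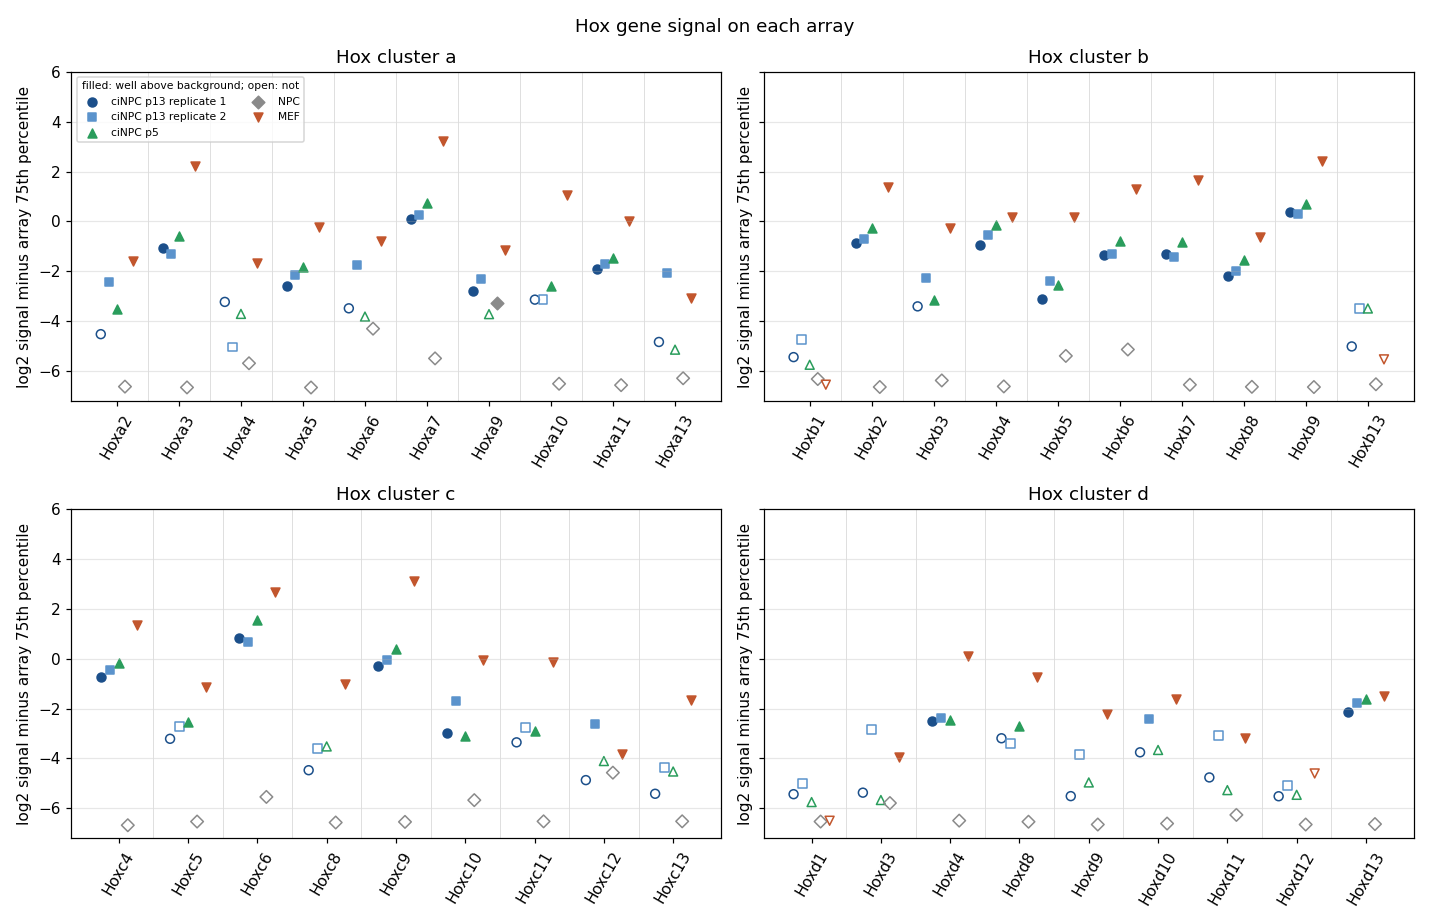
Log2 signal of the Hox genes reported here relative to the 75th percentile of its array (vertical axis), by cluster and paralog number, for the 3 ciNPC arrays, NPC and MEF; filled symbols are well above background and open symbols are not. For most genes the ciNPC arrays lie between the MEF symbol above and the open NPC symbol below.

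Many Hox genes were lower in ciNPC than in MEF, with some in each cluster. In ciNPC 21 of the 35 genes tested were lower than in MEF and 0 were higher, at an adjusted p under 0.05 and a change of at least 2-fold, against 15.3% of all genes called lower and 15.3% called higher. No Hox gene was higher at an unadjusted p under 0.05 either. The median log2 difference was -2.09, or -1.97 with dim values at the floor, against -0.09 over all genes tested. Of the 21 genes, 15 were among the 18 detected on all ciNPC arrays, 4 were detected on some and 2 on none. 10 of the 35 genes entered the test through the MEF array alone, where they were high, and 2 of these 10, Hoxc8 and Hoxc13, are among the 21. The genes lower than in MEF numbered 28 without the p13 replicate 2 array, 18 without p13 replicate 1 and 21 without p5. In bulk RNA, fewer cells that express a gene and less RNA per cell cannot be told apart.

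Fibroblast markers moved with the Hox genes. All 12 listed markers were detected on every ciNPC array. Relative to MEF 10 of the 12 were lower, with a median log2 difference of -2.71, and relative to NPC all 12 were higher. Their mean log2 signal was 2.80, 2.73 and 3.28 on the p13 replicate 1, p13 replicate 2 and p5 arrays, against -3.70 in NPC and 5.82 in MEF, and 7 of them were detected in NPC. The matrix gene Postn stood at 2.96% of MEF in ciNPC and the collagen gene Col3a1 at 3.83%, and the highest of the 12 was at 63.4%. The part of fibroblast-like cells in the Hox signal was not tested.

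In cluster a, 6 of 11 genes were lower in ciNPC than in MEF. Hoxa10, a gene of the lumbar region and uterus, had signals of -3.13, -3.12 and -2.59 on the p13 replicate 1, p13 replicate 2 and p5 arrays, -6.51 in NPC and 1.08 in MEF. Only the p5 value was well above background among ciNPC, and MEF stood over 3 log2 units above every ciNPC array. The difference was -4.03 (SE 0.50, adjusted p 0.000859). Hoxa3, required for the thymus and parathyroid, had -1.07, -1.29 and -0.56 in ciNPC, -6.66 in NPC and 2.24 in MEF. It was detected on all ciNPC arrays and fell by 3.21 on the log2 scale (SE 0.37, adjusted p 0.000629). Hoxa7 had 0.09, 0.25 and 0.73 in ciNPC, -5.49 in NPC and 3.25 in MEF, a difference from MEF of -2.89 (SE 0.29, adjusted p 0.00039). In these genes the ciNPC arrays lay close together, below MEF and above NPC.

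Other genes of cluster a differed less from MEF. Hoxa11, which patterns the forearm, is the best measured member, with 10 spots per array whose SD was between 0.03 and 0.12. It had -1.91, -1.72 and -1.45 in ciNPC, -6.56 in NPC and 0.02 in MEF, and the difference from MEF was -1.72 (SE 0.41, adjusted p 0.0127). The spots' SD covers the spread within an array only. Hoxa13, a gene of digits and the genital tubercle, had -4.83, -2.05 and -5.14 in ciNPC, -6.29 in NPC and -3.09 in MEF. The p13 replicate 2 value, 205.6% of MEF, was the only one above background in ciNPC, and the mean difference, -0.92 (SE 1.36), did not pass. Hoxa5 (-1.98), known for lung development, was lower as well. Hoxa2, Hoxa6 and Hoxa9 lay between -2.22 and -1.79 without passing, and Hoxa4, under background on all ciNPC arrays, did not pass either.

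In cluster b, 6 of 8 genes tested were lower. Hoxb7 had -1.32, -1.41 and -0.80 in ciNPC, -6.55 in NPC and 1.67 in MEF, a difference from MEF of -2.85 (SE 0.37, adjusted p 0.001). Hoxb5, used in the gut nervous system, had -3.10, -2.38 and -2.56, against -5.39 in NPC and 0.17 in MEF, and fell by 2.85 (SE 0.49, adjusted p 0.00336). Hoxb3 had -3.40, -2.28 and -3.14, with replicate 1 of p13 under background, against -6.38 in NPC and -0.28 in MEF. Its difference from MEF was -2.66 (SE 0.63, adjusted p 0.0127). For all of these every ciNPC array was below MEF.

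Hoxb4, a gene known for expanding blood stem cells, kept more of its MEF signal. It had -0.94, -0.53 and -0.12 on the p13 replicate 1, p13 replicate 2 and p5 arrays, -6.62 in NPC and 0.20 in MEF. All ciNPC arrays were below MEF, but the difference of -0.73 (95% interval -1.67 to 0.21, adjusted p 0.175) did not pass. Hoxb8 had -2.17, -1.99 and -1.55 in ciNPC, -6.63 in NPC and -0.62 in MEF, and its difference of -1.28 (95% interval -2.39 to -0.17) had an adjusted p of 0.06. Hoxb9, a thoracic gene, had 0.39, 0.28 and 0.72 in ciNPC, -6.64 in NPC and 2.44 in MEF. It was lower than MEF by a difference of -1.97 (SE 0.26, adjusted p 0.00112). Hoxb2 (-1.99) and Hoxb6 (-2.46) were also lower than in MEF.

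In cluster c, 7 of 9 genes were lower. Hoxc9 had -0.30, -0.05 and 0.37 in ciNPC, -6.54 in NPC and 3.13 in MEF, and its difference from MEF of -3.13 (SE 0.31) had the smallest adjusted p of the Hox genes, 0.000368. Hoxc13, needed for hair and nails, had -5.42, -4.38 and -4.52 in ciNPC, all under background, -6.52 in NPC and -1.65 in MEF. It was lower by at least 2.89-fold (adjusted p 0.0359), having entered the test through MEF alone. Hoxc11 had -3.35, -2.77 and -2.91, with only p5 above background, against -6.52 in NPC and -0.12 in MEF. Its difference from MEF was -2.90 (SE 0.55, adjusted p 0.00507).

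The thoracic gene Hoxc6 was lower by less. It had 0.81, 0.67 and 1.55 in ciNPC, -5.54 in NPC and 2.67 in MEF, a difference from MEF of -1.66 (SE 0.35, adjusted p 0.00841). Hoxc5 had -3.21, -2.72 and -2.53 in ciNPC, -6.53 in NPC and -1.15 in MEF, and its difference of -1.67 had an adjusted p of 0.0517. Hoxc12 had -4.87, -2.63 and -4.10, against -4.57 in NPC and -3.83 in MEF. It was above background only on the p13 replicate 2 and MEF arrays, and the groups overlapped. Its difference from MEF of -0.04 (SE 1.03, adjusted p 0.978) changed sign without p13 replicate 1 (0.46) and without p5 (0.08). Hoxc4 (-1.82), the lumbar gene Hoxc10 (-2.55) and Hoxc8, under background on all ciNPC arrays and lower by at least 4.47-fold, completed the genes lower than in MEF.

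Cluster d had the fewest calls, 2 of 7 genes tested, and only Hoxd4 and Hoxd13 were detected on all ciNPC arrays. Hoxd4 had -2.49, -2.36 and -2.44 in ciNPC, -6.49 in NPC and 0.09 in MEF. Its ciNPC arrays lay within an SD of 0.07, and the difference from MEF was -2.52 (SE 0.44, adjusted p 0.00367). Hoxd8 had -3.19, -3.41 and -2.68, with only p5 above background, against -6.54 in NPC and -0.75 in MEF, and fell by 2.34 (SE 0.60, adjusted p 0.0175). Hoxd9 had -5.51, -3.84 and -4.96 in ciNPC, all under background, -6.65 in NPC and -2.23 in MEF. Only a bound of 1.93-fold below MEF can be given for Hoxd9, and it did not pass (adjusted p 0.102).

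Hoxd13, which shapes the digits, was the gene that came nearest to MEF among those detected on all ciNPC arrays. It had -2.15, -1.79 and -1.61 on the p13 replicate 1, p13 replicate 2 and p5 arrays, -6.63 in NPC and -1.51 in MEF. Every ciNPC array was below MEF by less than 1 log2 unit, and the difference was -0.34 (95% interval -1.48 to 0.79, adjusted p 0.59). Hoxd3 had -5.37, -2.85 and -5.67 in ciNPC, -5.79 in NPC and -3.93 in MEF, and Hoxd11 had -4.76, -3.07 and -5.27, against -6.26 in NPC and -3.19 in MEF. In both, no ciNPC array was well above background, p13 replicate 2 read above MEF, and no difference passed. Hoxd10 (-1.65), expressed in lumbar motor neurons and the limb, did not pass either.

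**Figure D2:**
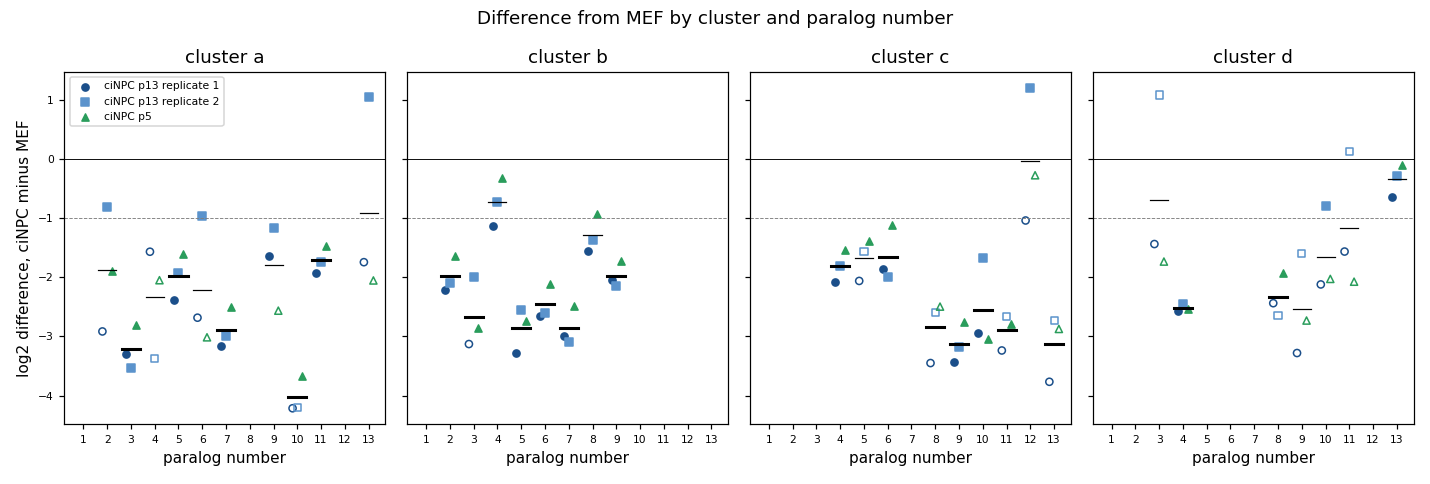
Log2 difference of each ciNPC array from MEF (vertical axis) by paralog number (horizontal axis) in the 4 clusters; filled symbols are well above background, bars are means over the 3 ciNPC arrays and thick bars passed the test. All means plotted lie below 0, and the 4 symbols above 0 at paralogs 3, 11, 12 and 13 all belong to p13 replicate 2.

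No gradient along the clusters stood out. Of the anterior paralogs 1 to 4, 6 of 10 genes tested were lower in ciNPC than in MEF, of the central paralogs 5 to 8, 8 of 11, and of the posterior paralogs 9 to 13, 7 of 14. Their median log2 differences were -2.04, -2.34 and -1.88. Across the 35 genes, which are not independent replicates, the difference correlated with paralog number at r = 0.12, and over the 18 genes detected on all ciNPC arrays at r = 0.25, or -0.05 without Hoxd13. The paralogs 7, Hoxa7 and Hoxb7, differed from MEF by nearly the same amount, -2.89 and -2.85. The paralogs 4 did not: Hoxb4 stood at 60.3% of MEF in ciNPC, Hoxc4 at 28.4% and Hoxd4 at 17.4%. Among the paralogs 13, Hoxc13 was lower than in MEF, and Hoxa13 and Hoxd13 did not pass.

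Against brain NPC the Hox genes went the other way. In ciNPC 23 of 35 genes were higher than in NPC and 0 were lower, where 4.79% of all genes were called higher and 0.0863% lower. No Hox gene was lower at an unadjusted p under 0.05. Of the genes tested only Hoxa9 was detected in NPC, and dim probes read higher on the ciNPC arrays. A call lower than NPC could thus hardly arise for the others, and the 0 carries no information about them. The median log2 difference was 3.56, or 1.67 with dim values at the floor, against -0.14 over all genes. By cluster the higher genes numbered 6 of 11 in a, 8 of 8 in b, 6 of 9 in c and 3 of 7 in d. This comparison shares the ciNPC arrays with that against MEF. It also depends on the scaling: 15 genes were higher after quantile normalisation and 13 after normexp background correction with quantile normalisation.

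NPC was under background for all 23 genes, so their folds are given as bounds, between 2.39 and 41.2, with the adjusted p of the measured difference. For Hoxc6 the bound was 41.2-fold (adjusted p 7.84e-05), for Hoxb9 28.2-fold (1.75e-05), for Hoxa7 26.2-fold (5.47e-05) and for Hoxc9 20.5-fold (4.44e-05). Hoxc4 was at least 14.9-fold higher (6.17e-05), Hoxb4 at least 14.1-fold (0.000178) and Hoxb2, a hindbrain gene, at least 13.3-fold (9.19e-05). These genes were read on every ciNPC array well above the NPC floor. At the low end stood Hoxd8, with a bound of 2.39-fold (0.021), and Hoxc11, with 2.53-fold (0.0127). Neither passed after quantile normalisation (adjusted p 0.483 and 0.157). Of the 23 genes, 18 were detected on all ciNPC arrays and 5 on only some. Hoxd8 and Hoxc11 are among the 5, whose bounds average in ciNPC values under background and are not strict.

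Many Hox genes lay between MEF and NPC. All ciNPC arrays read below MEF and above NPC for 30 of 35 genes, where 14.9% of all genes had this order. Of the 30, 18 were detected on all ciNPC arrays and 8 on some. For the other 4, Hoxa4, Hoxc8, Hoxc13 and Hoxd9, ciNPC and NPC were both under background, where ciNPC arrays read higher in any case, so their place above NPC carries no information. The same holds for the ciNPC arrays under background in the 8 genes, in which NPC was under background too. The count of 30 rests in part on such arrays. Both tests passed, lower than MEF and higher than NPC, for 19 genes, against 3.44% of all genes. 4 genes, Hoxb4, Hoxb8, Hoxc5 and Hoxd13, were higher than NPC without passing against MEF. Hoxc8 and Hoxc13 were lower than MEF without passing against NPC, and neither was detected in ciNPC.

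The 18 genes detected on all ciNPC arrays kept a median of 24.3% of their MEF signal. Hoxd13 kept 78.9%, Hoxb4 60.3%, Hoxb8 41.1%, Hoxc6 31.6% and Hoxa11 30.4%, and only the first of these, with Hoxb4, stayed within 2-fold of MEF. At the other end Hoxa3 kept 10.8%, Hoxc9 11.5%, Hoxa7 13.5%, Hoxb7 13.8% and Hoxb5 13.8%. All 18 were at least 4-fold lower in NPC than in MEF. The 1219 genes of any kind that shared this property and were detected in MEF and on all ciNPC arrays kept a median of 22.5% (quartiles 14.7% and 33.1%), and 54.6% of them were called higher than NPC. The Hox quartiles were 14.6% and 29.9%, and the Hox median lay between the quartiles of those genes.

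**Figure D3:**
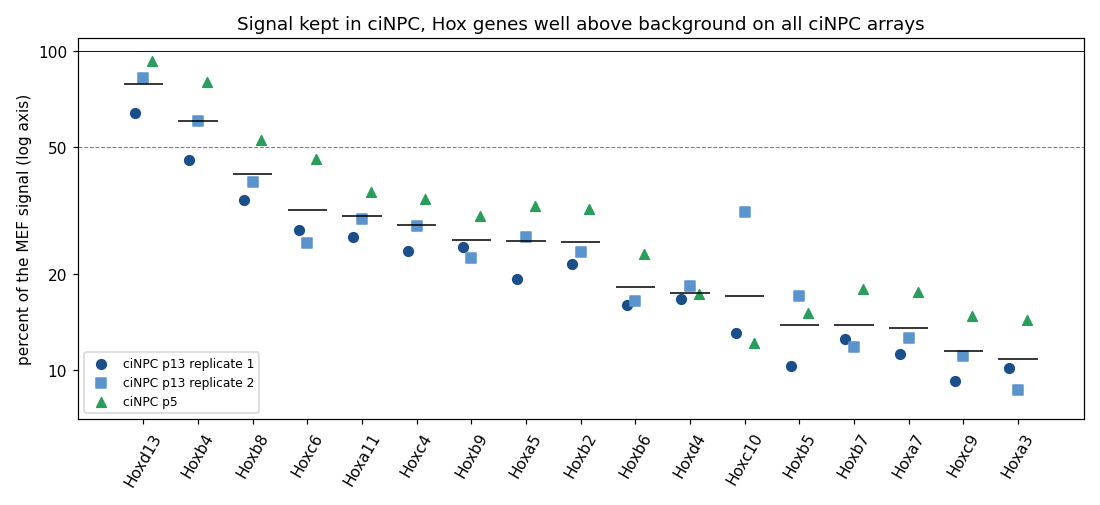
Percent of the MEF signal on each ciNPC array (vertical log axis) for the Hox genes reported here and detected on all of them, ordered by their mean (bars). Means run from 78.9% for Hoxd13 to 10.8% for Hoxa3, and p5 is the highest array for most genes.

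Between passages no Hox gene changed by the test. Of the 35 genes 0 were higher and 0 lower in p13 than in p5, with 0.419% of all genes called higher and 0.21% called lower. An unadjusted p under 0.05 was found for 3 of the 35, and for 3628 of all 16228 genes tested. This fit had 1 residual degree of freedom. Hoxc6 came nearest, with a log2 difference of -0.81 and an adjusted p of 0.0257, under the 2-fold limit. Its values on every array are given above. The p13 arrays differed from each other by less than either differed from p5.

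The sign was shared by many genes. Of the 18 detected genes, 15 were lower on both p13 arrays than at p5, where 44.5% of 12705 genes detected on all ciNPC arrays were. Their median log2 difference was -0.52, against -0.03 over those genes, and they ranged from -0.81 for Hoxc6 to 0.74 for Hoxc10. The exceptions were Hoxb5, Hoxc10 and Hoxd4. In percent of MEF the medians were 19.1% and 23.1% on the p13 arrays, against 30.1% at p5. Fibroblast markers shifted likewise, all 12 being lower on both p13 arrays with a median of -0.45, and so did 1201 other genes at least 4-fold lower in NPC than in MEF, of which 73.3% were lower on both, with a median of -0.33. The Hox median was -0.55 without p13 replicate 2 and -0.42 without p13 replicate 1. The part of fibroblast-like cells in this shift was not tested.

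Dim members were less stable. Among the 17 genes tested but not detected on all ciNPC arrays, p13 replicate 2 read highest in 12. Of the ciNPC arrays, p13 replicate 2 alone detected 4 genes: Hoxa6, Hoxa13, Hoxc12 and Hoxd10. The p5 array alone detected 4 others: Hoxa10, Hoxc5, Hoxc11 and Hoxd8. The median SD over the 3 ciNPC arrays was 0.74 for these 17 genes, against 0.33 for the 18 detected on all.

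Pairs of probes differed for some genes. For Hoxa13 the second probe, with -4.67, -1.45 and -5.75 in ciNPC, -5.38 in NPC and -4.22 in MEF, had a measured difference from MEF of 0.26, against -0.92 for the first. Neither was detected in ciNPC outside p13 replicate 2, and the second was under background in MEF. The Hoxb3 probe used for the gene gave -2.66. The other, detected on 1 ciNPC array, gave -1.39. It passed neither against MEF nor against NPC in the fit of all probes (adjusted p 0.186 and 0.0548). For Hoxa9 the probes gave -1.79 and -3.41, the second of which passed against MEF in that fit (adjusted p 0.0111). Hox genes overlap and share exons with antisense and readthrough transcripts, and a probe of 60 bases reads whichever transcript holds its bases on that strand.

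Transcripts without a Hox name that lie among the Hox genes followed them in part. Of 40 such probes 31 were tested, and 9 were lower and 1 higher in ciNPC than in MEF, against 11.3% and 12.5% of all probes. Relative to NPC 5 were higher and 0 lower, against 2.73% and 0.0534% of all probes. The antisense transcript Hoxa11as, between Hoxa11 and Hoxa13, had -0.68, -0.76 and -0.35 on the p13 replicate 1, p13 replicate 2 and p5 arrays, -3.93 in NPC and 1.68 in MEF. It was above background everywhere, and ciNPC lay 2.27 below MEF and 3.33 above NPC (adjusted p 0.00118 and 0.00106), so in NPC it was detected where Hoxa11 was not. The antisense transcript ENSMUST00000150698, between Hoxb7 and Hoxb6, had -2.18, -2.18 and -1.55 in ciNPC, -6.47 in NPC and 1.49 in MEF. It was lower than MEF by a difference of -3.46 (adjusted p 0.00146) and at least 5.21-fold higher than NPC (0.00236). AI448005, between Hoxd4 and Hoxd3, had -2.33, -2.32 and -1.47, against -6.65 in NPC and 0.85 in MEF, and passed both ways (0.00557 and 0.0042).

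A lincRNA between Hoxb5 and Hoxb4 was read by 3 neighbouring probes, shown because all 3 were lower in ciNPC than in MEF beside Hoxb4, which did not pass. They lie on the plus strand of mm9 at chr11:96175777-96175836, chr11:96175838-96175897 and chr11:96175970-96176029, in the order given.
lincRNA probe 1: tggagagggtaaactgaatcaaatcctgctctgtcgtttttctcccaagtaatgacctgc
lincRNA probe 2: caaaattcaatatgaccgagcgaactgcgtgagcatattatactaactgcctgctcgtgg
lincRNA probe 3: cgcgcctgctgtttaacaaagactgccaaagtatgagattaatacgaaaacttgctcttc

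Their log2 differences of ciNPC from MEF were -3.57, -3.48 and -3.19 (adjusted p 0.00501, 0.00639 and 0.00237). Probes 1 and 2 were detected in ciNPC at p5 alone. Probe 3 had -2.73, -2.02 and -1.81 in ciNPC, -3.95 in NPC and 1.00 in MEF, and none of the 3 passed against NPC. Another lincRNA between Hoxb5 and Hoxb4, on the same strand, was also read by 3 probes. Their differences from MEF were -1.40, -1.79 and -0.77, and none passed (adjusted p 0.327, 0.33 and 0.246). Only the last of them was detected in ciNPC. Some probes in the long gap between Hoxb13 and Hoxb9 behaved otherwise, though A_30_P01030306 there was lower in ciNPC than in MEF (-1.02, adjusted p 0.0209). A_55_P1998848 had 6.68, 6.74 and 6.88 in ciNPC, 6.84 in NPC and 7.41 in MEF, and did not reach the 2-fold limit. The minus-strand lincRNA probe A_30_P01019010 had 5.20, 5.28 and 4.72, against 5.77 in NPC and 2.98 in MEF. It was higher in ciNPC than in MEF by 2.08 (adjusted p 0.000682), the 1 probe of the clusters to be so. Another probe of the same lincRNA and strand, A_30_P01030733, had -2.03, -2.18 and -2.38 in ciNPC, -1.68 in NPC and -1.41 in MEF, and its difference from MEF of -0.79 did not pass (adjusted p 0.153).

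**Figure D4:**
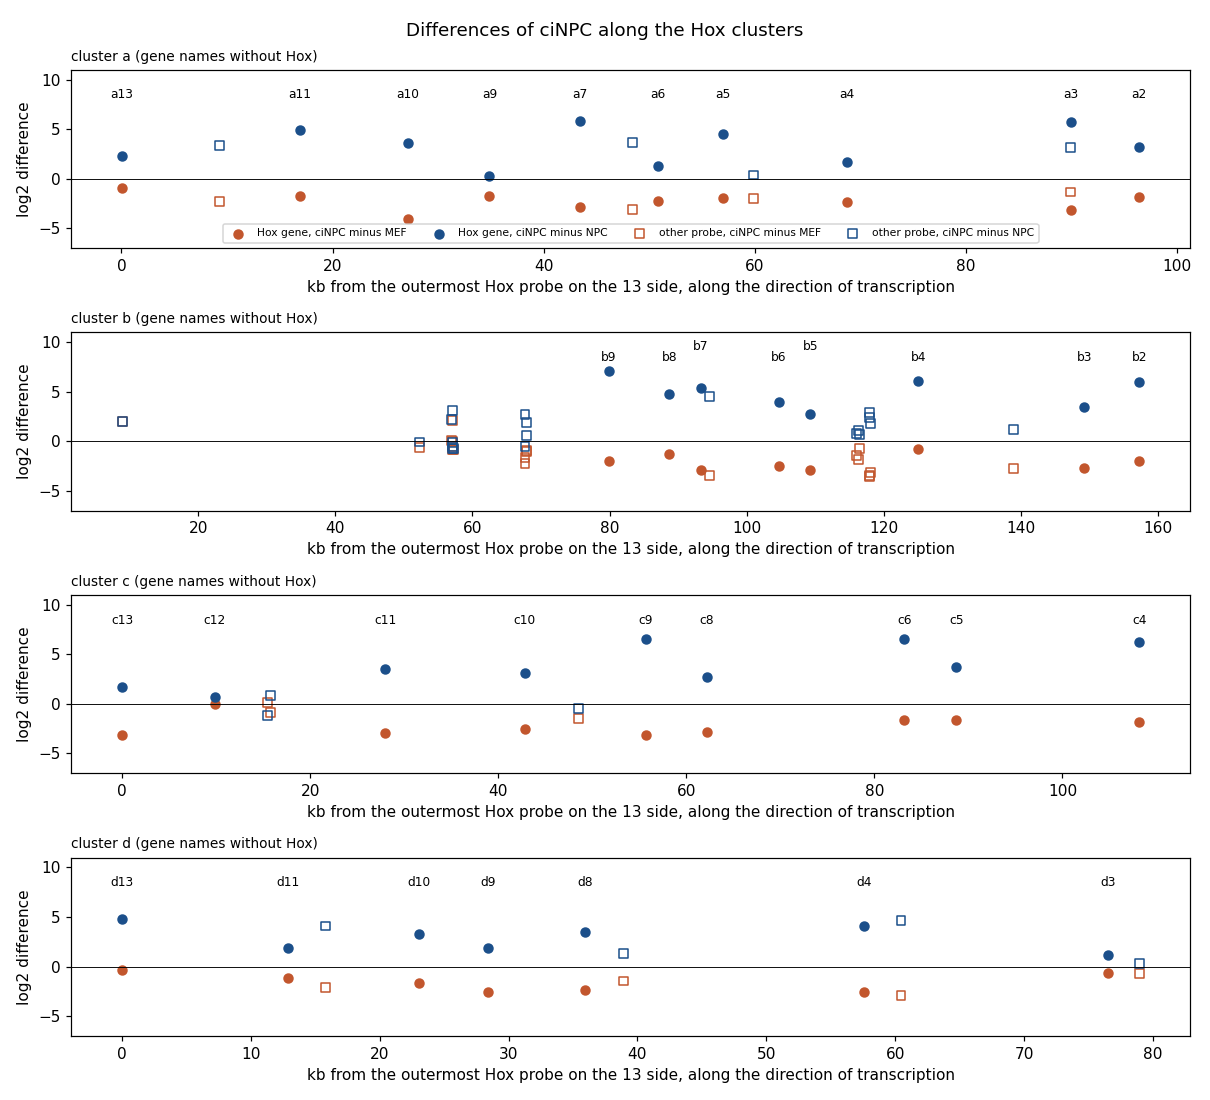
Log2 difference of ciNPC (mean of 3 arrays) from MEF (orange) and from NPC (blue) against the distance in kb from the outermost Hox probe on the 13 side, for the Hox genes reported here (filled) and other probes (open squares) tested in each cluster. Orange Hox symbols lie below 0 and blue ones above 0 along all 4 clusters, and the open orange square highest above 0, at 2.08, lies in the gap between Hoxb13 and Hoxb9.

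RefSeq promoters (build GRCm38.p6, 250 bases before to 50 after the start) were matched for 22 of the 39 genes, 24 windows in all. They were richer in CG pairs than promoters at large, with a median of 14.5 per window against 7 over 32851 windows, and a GC content of 57.7% against 52.7%. The letters AGGTCA, a hexamer read by retinoic acid receptors, occurred on either strand in 7 of 24 windows (29.2%), against 16.3% of all. TTTATG, the core bound by Cdx factors, occurred in 5 (20.8%), against 11.9%, and TGATTNAT, bound by Pbx with Hox proteins, in 2 (8.33%), against 3.22%. A match of letters is a description and not a site. The sequences before the starts of Hoxa3 (chr6:52213068-52213317, minus strand) and Hoxd13 (chr2:74667975-74668224, plus strand) are shown, since among matched genes with a single start and detected on all ciNPC arrays these differed most and least from MEF. Probes and promoters are placed on different builds, and whether the transcript a probe read began at the start shown was not tested. The start can be far from the probe. Capitals mark CG pairs, 18 in Hoxa3 and 31 in Hoxd13.
Hoxa3 promoter: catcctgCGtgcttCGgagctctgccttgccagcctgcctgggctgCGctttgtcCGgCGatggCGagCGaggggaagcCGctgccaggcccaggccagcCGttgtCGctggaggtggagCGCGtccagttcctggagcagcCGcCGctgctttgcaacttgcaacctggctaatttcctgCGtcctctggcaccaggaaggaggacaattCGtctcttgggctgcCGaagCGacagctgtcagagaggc
Hoxd13 promoter: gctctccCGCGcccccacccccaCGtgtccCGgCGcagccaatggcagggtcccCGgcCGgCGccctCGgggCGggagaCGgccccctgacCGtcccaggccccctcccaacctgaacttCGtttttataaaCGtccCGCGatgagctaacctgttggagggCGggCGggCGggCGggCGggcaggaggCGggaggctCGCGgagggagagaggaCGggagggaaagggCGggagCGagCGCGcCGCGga

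Counts in the gene lists below stand against 15.3% of all genes higher and 15.3% lower than in MEF, and 4.79% higher and 0.0863% lower than in NPC. Of 9 cofactors of the TALE class, which bind DNA together with Hox proteins, 2 were lower in ciNPC than in MEF and 0 passed against NPC. The median difference from MEF was -0.04. Meis3 had 0.54, 0.54 and 0.36 on the p13 replicate 1, p13 replicate 2 and p5 arrays, 0.66 in NPC and 1.87 in MEF, a difference from MEF of -1.39 (adjusted p 0.000891). Its ciNPC and NPC arrays lay together below MEF. All 9 were well above background on every array, NPC included.

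Of upstream factors, 5 of 10 on the array were tested and 1 was higher than in MEF, Gbx2, a gene of the midbrain and hindbrain border, by 1.70 (adjusted p 0.00839). The hindbrain factor Egr2 was lower in p13 than in p5 by a difference of -1.37. Cdx1, Cdx2 and Cdx4, which activate trunk Hox genes, were under background in all groups and not tested.

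The retinoic acid pathway, which induces Hox genes from the anterior end, was lower than in MEF in 8 of 14 genes tested and higher in 1. The binding protein Crabp2 differed by -3.67, the receptors Rarg and Rara by -2.72 and -2.49, and Crabp1 by -2.36. The 1 higher gene, named after its value was seen, was the receptor Rarb, by 1.94 (adjusted p 0.00687), above MEF on all 3 ciNPC arrays. Relative to NPC 6 genes were higher and 0 lower. Crabp1 was at least 45.7-fold higher, the degrading enzyme Cyp26b1 at least 38.2-fold and the synthetic enzyme Aldh1a2 at least 6.68-fold, and Aldh1a1 was higher by 1.93.

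Polycomb genes, whose products silence Hox clusters outside their domain, held mixed calls. Of 18 tested, 5 were higher and 2 lower in ciNPC than in MEF, and 0 passed against NPC. The methyltransferase Ezh2 had 3.23, 3.27 and 3.19 in ciNPC, 3.54 in NPC and 1.09 in MEF, a difference from MEF of 2.14 (adjusted p 5.01e-05). The ciNPC and NPC arrays lay together above MEF. Mtf2 was higher by 1.91 and Phf19 by 1.70, both partners of that enzyme, and Pcgf2 was lower, with -1.73. Of 11 Trithorax and demethylase genes 2 were higher, Psip1 (1.67) and Kmt2c (1.48), and 2 lower, Kdm6b (-1.22) and Kdm6a (49.9% of MEF), with 0 called against NPC.

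Genes flanking the clusters did not share the Hox pattern as a list. Of 14 tested, 3 were higher and 2 lower than in MEF, with a median of 0.00, and 0 passed against NPC. Cbx5 was higher by 1.87 and Nfe2l2 by 1.05. Calcoco1, next to cluster c, stood at 24.9% of MEF. Skap1, next to cluster b, was lower by at least 4.33-fold (adjusted p 0.0457).

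Homeobox genes of the head gave the opposite picture to Hox. Of 12 on the array 7 were tested, all 7 detected in NPC and 4 in MEF. Those not detected in MEF entered the test through groups where they were high, which favours a call higher than in MEF. All 7 tested were higher in ciNPC than in MEF and 0 of 7 passed against NPC. The forebrain factor Lhx2 had 1.80, 1.26 and 1.89 in ciNPC, 1.82 in NPC and -3.53 in MEF, a difference from MEF of 5.18 (adjusted p 3.4e-05). Otx2 and Six3, under background in MEF, were at least 17.9-fold and at least 12.8-fold higher. The midbrain gene En2 was higher in p13 than in p5 by 1.13. Of 11 ParaHox and other homeobox genes 2 were higher than in MEF, among them Gsx1 by at least 10.5-fold, and 3 were lower, Meox1 (-5.52), Meox2 (-1.89) and Dlx2 (-1.78). Meox2 and Dlx2 were also higher than in NPC, by 2.24 and 2.79.

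Factors that mark limb and body wall mesenchyme went with the Hox genes. Of 13 tested, 6 were lower and 0 higher in ciNPC than in MEF, and 7 were higher and 0 lower than in NPC. The hindlimb factor Pitx1 had 0.30, 0.30 and 0.86 in ciNPC, -6.67 in NPC and 2.36 in MEF. It was lower than MEF by a difference of -1.88 (adjusted p 0.00245) and at least 28.6-fold higher than NPC (2.7e-05). Hic1 (-2.71), Tbx18 (-2.54) and Tbx15 (-1.66) were lower than in MEF. Prrx2 was higher than NPC by 4.61, and the hindlimb gene Tbx4 and the forelimb gene Tbx5 were at least 4.84-fold and at least 4.91-fold higher. Tbx4 had -2.44, -1.91 and -1.88 in ciNPC and -1.95 in MEF, so its ciNPC and MEF values overlapped.

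Markers of neural progenitors checked the labels. Of 11 tested, 9 were higher in ciNPC than in MEF and 0 passed against NPC, with Sox2 at least 78.7-fold higher than in MEF. All 11 were detected in NPC and on every ciNPC array, and 7 in MEF. The markers not detected in MEF entered the test through groups where they were high, which favours a call higher than in MEF. Of 6 markers of spinal cord and hindbrain progenitors tested, where Hox genes are normally used, Olig2, which is also on the neural progenitor list, was higher than in MEF, and Irx3 was lower than in MEF and at least 8.81-fold higher than in NPC. Pax7 was not tested, and Dbx1 was under background on all ciNPC arrays.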

How the data were processed

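The deposited array files hold, per the file headers, intensities (gProcessedSignal) that Agilent Feature Extraction 10.7.1.1 background-subtracted and detrended within an array of build mm9; the deposited value table holds log2 values (median 5.64 in each column), used as an alternative, whose scaling step the labels do not give. Spots flagged as outliers were left out unless all spots of a probe were, spots of a probe averaged, and the 75th percentile of each array subtracted from log2 intensity. Each gene took its probe with the highest mean, and 16228 genes were tested, those whose probe passed background on all arrays of 1 or more of the 4 groups. limma 3.58.1 in R 4.3.3 (lmFit, eBayes with trend, Benjamini-Hochberg over all genes tested) compared ciNPC (n = 3) with MEF and NPC (2 residual degrees of freedom), and p13 with p5 (1); the lone arrays were assumed to vary like ciNPC, and the number of arrays limits precision. A call needed an adjusted p under 0.05 and 2-fold. Values on every array are given for the 3 highest and 3 lowest genes per cluster, genes found in NPC and genes with discordant probes, with up to 4 called members per other list and comparison and the 6 brightest other names within clusters. Lists of macrophage, muscle, endothelial and neuron markers are summarised in the last section. Members and lists were chosen with earlier results of these data known. Probe names are those of the files, updated through a GRCm38.p6 table. A few items are not reported here or drawn in the figures, though counts and medians include them.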

Additional observations from a re-analysis of the deposited data

How the results depend on the processing

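Across the alternatives run, 18 to 28 Hox genes were lower and 0 higher in ciNPC than in MEF, the lowest and highest counts coming without p13 replicate 1 (18) and without p13 replicate 2 (28). Genes higher than in NPC, 23 as reported, numbered 15 after quantile normalisation, 15 in the deposited value table and 13 with normexp; they numbered 16 with dim values at the floor and 24 to 27 with 1 ciNPC array left out. Genes at least 4-fold lower in NPC than in MEF, 31 as reported, numbered 20 with normexp. Between passages, adjusted p alone gave 1 gene lower, Hoxc6. The cause of these shifts was not tested. No called gene changed sign. Among genes not called, the difference from NPC turned for Hoxa9 (-0.0536 after quantile normalisation, -0.0535 in the deposited table, -0.0619 with normexp, -0.0930 over the mean of probes), and with normexp for Hoxc12 (-0.0456), Hoxd3 (-0.0797) and Hoxd9 (-0.0635). The difference from MEF turned for Hoxc12 (0.0903 with the percentile over detected probes, 0.70 at the floor, and 0.46 to -0.66 with 1 ciNPC array left out) and, at the floor, for Hoxa13 (0.15), Hoxd11 (0.0125) and Hoxd3 (0.75). Keeping only probes above background on all arrays left no Hox gene to count. Leaving out a p13 array left the passage fit no residual degrees of freedom, and leaving out p5 left no comparison, so neither was tested. The median passage difference ran from -0.64 to -0.42. No paired analysis was possible because the groups compared share fewer than 2 replicate numbers. Signal over background limits the 17 dimmer genes, for which only bounds or wide intervals can be given.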

Other observations

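Of 6 macrophage markers tested, 2 were lower in ciNPC than in MEF and 3 higher than in NPC. Of 5 muscle markers, 2 were higher and 1 lower than in MEF, and 3 were higher than in NPC. Of 2 endothelial markers tested 1 was lower than in MEF and 0 passed against NPC. Of 6 neuron markers 3 were higher and 2 lower than in MEF, and 2 were higher than in NPC. Over all genes 15.3% were higher and 15.3% lower than in MEF, and 4.79% were higher than in NPC. The part of these cell types in the Hox signal was not tested.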
